A study of Mus musculus with 2 samples.

Results

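The Mir34 and Mir449 microRNAs form 1 family with a common seed, and 6 loci of the mouse genome encode them: Mir449a, Mir449b, Mir449c, Mir34b, Mir34c and Mir34a. These 6 were taken by gene symbol from 1973 microRNA loci counted in embryonic mouse hindbrain, and all 6 had a row. They were chosen by their common seed and selected on their counts in both libraries, with levels and the difference between the libraries already known, so both are given here as descriptions, without a test. The series has 1 group of 2 libraries, made from total RNA of hindbrain at embryonic day 14.5, strain B6NCrl, with inserts under 30 nucleotides. No genotype, agent or treatment is named in the labels. Replicate 1 was collected on 24 July 2014 and replicate 2 on 30 July 2014. One label describes each sample as a hindbrain of an individual embryo, another gives its sex as pooled, and both samples carry 1 donor label. It is therefore not shown that the 2 libraries come from separate animals, and n and SD describe only the spread between these 2 samples.

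A microRNA finds its targets mainly through its seed, bases 2 to 8 of the mature strand, so microRNAs with the same seed can act on overlapping sets of messenger RNAs. Mir449a, Mir449b, Mir449c, Mir34b and Mir34c are known for their role in multiciliated cells, which carry many motile cilia. In the brain such cells form the choroid plexus epithelium and the ependyma, and the same microRNAs are abundant in airway epithelium. Mir34a is transcribed more broadly and is known as a target of the tumour suppressor p53. The choroid plexus of the fourth ventricle develops from the hindbrain roof.

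The mature sequences of RefSeq (GRCm38.p6) show what the members share and where they part, and this bears on whether reads can be told apart. RefSeq entries were found for 5 of the 6 members, with 9 mature strands. The strands from the 5′ arm are printed first, with the seed in capitals.
miR-449a-5p: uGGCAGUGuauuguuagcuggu
miR-449c-5p: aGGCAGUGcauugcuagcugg
miR-34a-5p: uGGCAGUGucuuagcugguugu
miR-34b-5p: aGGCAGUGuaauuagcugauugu
All 4 have the seed GGCAGUG, and no other mature strand among the 1738 in the RefSeq table has it. The sequences of Mir449b and miR-34c-5p were not matched. Beyond the seed, miR-34b-5p and miR-449a-5p are identical from base 2 to base 10, and miR-34a-5p and miR-449a-5p to base 9. The pair miR-449a-5p and miR-449c-5p, from the same cluster, is identical only to base 8.

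The strands from the 3′ arm, with their bases 2 to 8 in capitals, do not share 1 seed.
miR-34b-3p: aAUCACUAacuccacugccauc
miR-34c-3p: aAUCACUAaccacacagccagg
miR-34a-3p: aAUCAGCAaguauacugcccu
miR-449a-3p: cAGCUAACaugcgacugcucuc
miR-449c-3p: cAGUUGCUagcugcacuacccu
Only miR-34b-3p and miR-34c-3p have the same seed, AUCACUA, and each of the other 3 seeds belongs to 1 mature strand of the table. The common seed of the family is thus a property of the 5′ arm. The counts were made per hairpin, so the data do not show how many reads of a locus came from either arm.

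The hairpin of Mir449a, the most abundant member, and that of Mir449c, its low neighbour in the same intron, are shown with both mature strands in capitals.
Mir449a hairpin: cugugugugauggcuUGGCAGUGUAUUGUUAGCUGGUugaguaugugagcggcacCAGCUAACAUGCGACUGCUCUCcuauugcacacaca
Mir449c hairpin: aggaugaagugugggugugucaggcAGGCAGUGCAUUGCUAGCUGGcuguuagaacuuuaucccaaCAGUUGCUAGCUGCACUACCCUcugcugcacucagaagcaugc
Their longest common run was 7 bases. Among the 10 pairs of the 5 matched hairpins the longest run was 11 bases, between Mir34a and Mir449a and between Mir34b and Mir34c. None of the 5 hairpins had a run of 20 bases in common with any other hairpin of the 1005 in the table. Reads that mapped to several positions made up 33.9% (replicate 1) and 34.3% (replicate 2) of the sequenced reads and count toward no locus. Whether any came from the family was not tested.

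The 6 loci lie at 3 places in the genome (GRCm38, GENCODE M21). Mir449c (chr13:113035983-113036091), Mir449b (chr13:113037419-113037498) and Mir449a (chr13:113037534-113037624) lie in this order on the plus strand within intron 2 of Cdc20b, a relative of the cell cycle activator Cdc20. They span 1642 bases, with 1327 bases between Mir449c and Mir449b and 35 bases between Mir449b and Mir449a. The nearest protein-coding gene upstream of Cdc20b's microRNAs is Mcidas, which encodes a coregulator that starts the multiciliated cell programme, and it ends 35589 bases before the cluster. Ccno, a cyclin-like gene needed for making many centrioles, ends 45206 bases before it. The series counts microRNA loci only, so it holds no value for Cdc20b, Mcidas, Ccno or other messenger RNAs of multiciliated cells.

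Mir34b (chr9:51103562-51103645) and Mir34c (chr9:51103034-51103110) lie 451 bases apart on the minus strand. Both overlap intron 1 of a transcript of Btg4, a gene of the opposite strand, and no annotated transcript on their own strand holds them. Mir34a (chr4:150068454-150068555) stands alone on the plus strand, outside protein-coding genes, and its 3′ end overlaps the single exon of Gm37795, an unclassified transcript of the same strand. The nearest coding genes are H6pd on the left and Gpr157 on the right.

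Replicate 1 had 5826676 gene-strand counts on microRNA loci and replicate 2 had 6667238. Levels are given in CPM, the counts of a locus per 1000000 of these. They are not divided by length, because a read is a whole small RNA, and the unequal capture of different small RNAs was not measured. Intervals are exact Clopper-Pearson intervals at 95%, and they cover counting error only, since no molecular identifiers were counted. As a check of the tissue label, Mir10a and Mir10b of the Hox clusters, which are active in hindbrain and spinal cord, had mean levels of 96399.6 and 63192 CPM, with log2 ratios of replicate 2 over replicate 1 of -0.41 and -0.38. The sum of opposite-strand counts was 1.99% of both-strand counts in replicate 1 and 2.21% in replicate 2, and none of the members had more than 2 such counts.

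The family as a whole held 59056 counts in replicate 1 and 39742 in replicate 2. This was 1.01% and 0.596% of the microRNA counts. Mir449a and Mir34c supplied nearly all of it, and the other 4 members together were a small remainder. All 6 members had at least 10 counts in each library, as did 401 of the 1973 loci. Only Mir449a and Mir34c had a mean above 129.8 CPM, the median of those 401 loci.

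Mir449a was the leading member. It had 39478 counts in replicate 1, or 6775 CPM (6709 to 6842), and 24859 counts in replicate 2, or 3729 CPM (3682 to 3775). The mean was 5252 ± 2154 CPM (SD, n = 2), which placed Mir449a at rank 37 of 1973 loci. It was at rank 23 in replicate 1 and at rank 52 in replicate 2. Its neighbours in mean level were Mir342 with 5478 ± 76.6 CPM and Mirlet7d with 5250.1 ± 959 CPM, and the levels of all 3 overlapped within their spread. Mirlet7d was higher in replicate 2, the other way round from Mir449a.

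Mir449b and Mir449c, from the same intron, were near the lower end of detection. Mir449b had 50 counts in replicate 1, or 8.58 CPM (6.37 to 11.3), and 21 counts in replicate 2, or 3.15 CPM (1.95 to 4.81). Mir449c had 40 counts, or 6.86 CPM (4.90 to 9.35), and 30 counts, or 4.50 CPM (3.04 to 6.42). Their mean levels were 5.87 ± 3.84 and 5.68 ± 1.67 CPM (SD, n = 2), ranks 327 and 329. The order of these 2 was not the same in both libraries, and their ranges overlapped.

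Within the cluster the counts of Mir449a stood far above those of its neighbours in both libraries. The ratio of Mir449a to Mir449b was 790 (599 to 1064) in replicate 1 and 1184 (774 to 1913) in replicate 2. The ratio of Mir449a to Mir449c was 987 (725 to 1382) and 829 (580 to 1228). The intervals of the 2 libraries overlapped for each ratio. These ratios compare counts of loci in 1 library, so they do not depend on how the libraries were scaled, but they do carry any difference in capture between the small RNAs.

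Mir34c was the second member by level. It had 18331 counts in replicate 1, or 3146 CPM (3101 to 3192), and 13730 counts in replicate 2, or 2059 CPM (2025 to 2094), with a mean of 2603 ± 768 CPM (SD, n = 2) at rank 64. Its neighbours in mean level, Mir219a-2 with 2618 ± 252 CPM and Mir615 with 2549 ± 667 CPM, were also lower in replicate 2. Mir34b, transcribed ahead of Mir34c on the minus strand, had 528 counts, or 90.6 CPM (83.1 to 98.7), and 412 counts, or 61.8 CPM (55.97 to 68.1). Its mean was 76.2 ± 20.4 CPM (SD, n = 2), at rank 229. Both members were higher in replicate 1, with intervals that did not overlap between the libraries.

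The pair kept nearly the same proportion in both libraries. Mir34c had 34.7 counts for each count of Mir34b in replicate 1 (31.8 to 37.9) and 33.3 in replicate 2 (30.2 to 36.8). These intervals overlapped, so no difference in the proportion was detectable at this depth. In both clusters, then, the member transcribed last was the most abundant, as the plot of level by position shows.

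**Figure D1:**
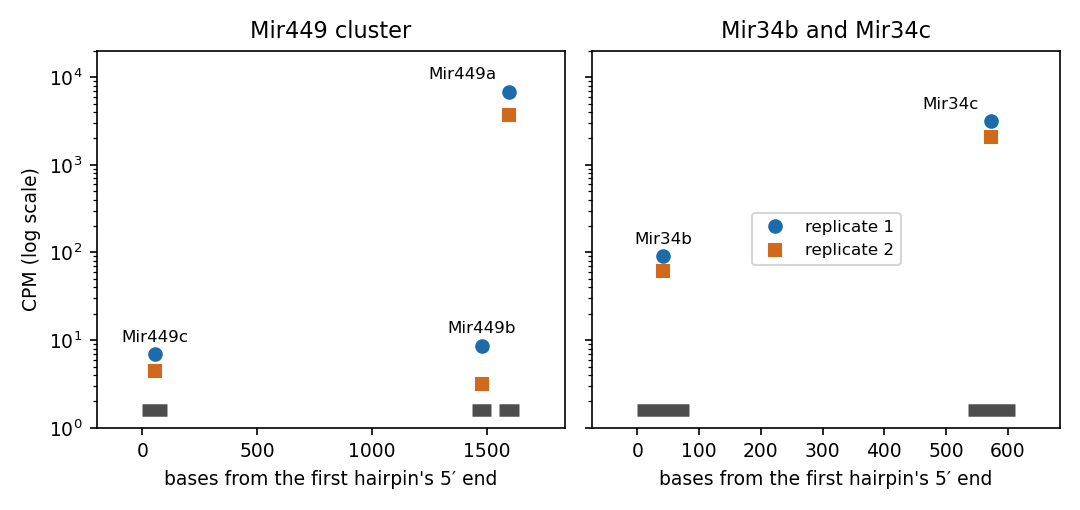
Level of each clustered member in CPM (log axis) against its distance in bases from the first hairpin's 5′ end, in the direction of transcription, for the Mir449 cluster (left) and for Mir34b and Mir34c (right). Circles are replicate 1, squares replicate 2, and grey bars mark the hairpins; Mir449a and Mir34c, the last hairpins, are the highest.

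Mir34a was nearly level between the libraries. It had 629 counts in replicate 1, or 107.95 CPM (99.7 to 116.7), and 690 counts in replicate 2, or 103.5 CPM (95.9 to 111.5). The mean was 105.7 ± 3.15 CPM (SD, n = 2), rank 210. Its neighbours by mean level were Mir412 with 108.4 ± 6.67 CPM and Mir199b with 100.9 ± 11.0 CPM, both within the spread. Mir34a and Mir34b are next to each other in the order of the family, and the values of Mir34a lay above those of Mir34b in both libraries.

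By mean level the order of the family was Mir449a, Mir34c, Mir34a, Mir34b, Mir449b and Mir449c. The ranges over the libraries did not overlap between neighbours in this order, except for Mir449b and Mir449c. The lower Mir449a value, 3729 CPM, stood above the higher Mir34c value, 3146 CPM.

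**Figure D2:**
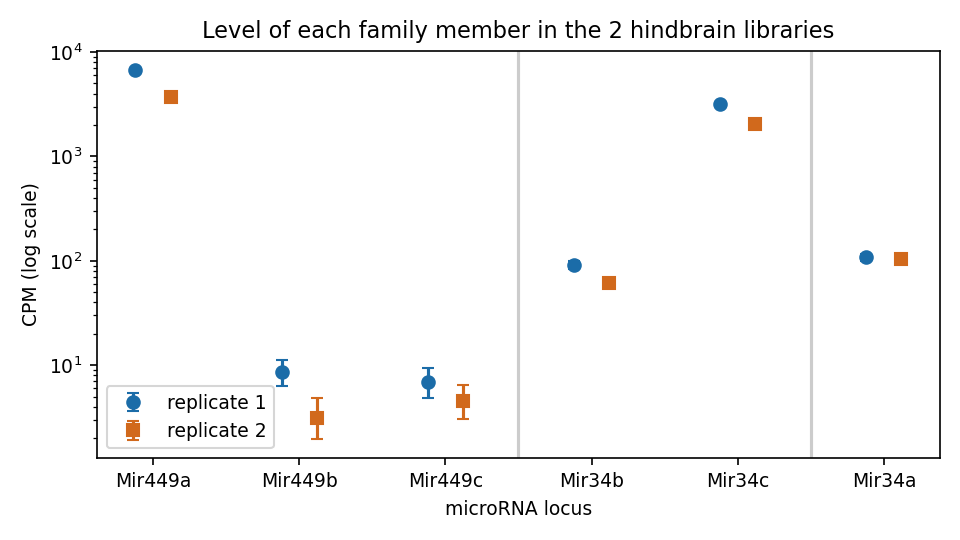
CPM of the 6 members (log axis) in replicate 1 (circles) and replicate 2 (squares), with 95% Clopper-Pearson intervals as bars, which are smaller than the symbols for abundant loci. Grey lines separate the Mir449 cluster, Mir34b with Mir34c, and Mir34a; the levels run from 3.15 CPM for Mir449b in replicate 2 to 6775 CPM for Mir449a in replicate 1.

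The composition of the family was not the same in the 2 libraries. The Mir449 cluster held 67.0% of family counts in replicate 1 (66.6 to 67.4) and 62.7% in replicate 2 (62.2 to 63.2). Mir34b and Mir34c together held 31.9% (31.6 to 32.3) and 35.6% (35.1 to 36.1). Mir34a held 1.07% (0.984 to 1.15) and 1.74% (1.61 to 1.87). None of these 3 pairs of intervals overlapped, so the proportions differed by more than counting error. Whether they differ by more than the spread between embryos cannot be told from 1 library a replicate.

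The ratios between members restate this from the same counts, and like the shares they do not depend on the scaling of the libraries. Mir449a had 2.15 counts for each count of Mir34c in replicate 1 (2.12 to 2.19) and 1.81 in replicate 2 (1.77 to 1.85). Mir34c had 29.1 counts for each of Mir34a in replicate 1 (26.9 to 31.6) and 19.9 in replicate 2 (18.4 to 21.5). For both pairs the intervals of the 2 libraries did not overlap.

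For the difference between the libraries, counts were scaled by TMM, which sets the bulk of loci to no change, and each log2 ratio sets replicate 2 over replicate 1 after 0.5 was added to the counts. All 6 members had a log2 ratio below 0. Members of the same cluster lie close together in the genome, so they do not count as separate observations. Mir449a had -0.90 (-0.93 to -0.88), Mir34c -0.65 (-0.69 to -0.62) and Mir34b -0.59 (-0.78 to -0.41). Mir449b had -1.47 (-2.30 to -0.73), while the intervals of Mir449c (-0.65, -1.39 to 0.07) and Mir34a (-0.10, -0.26 to 0.05) included 0. The difference was therefore beyond counting error for 4 members, and for Mir449c it was not detectable at 40 and 30 counts. At high counts such intervals are narrow, and Mir143, at only 0.03 (0.008 to 0.048), also excluded 0. How many of all loci had an interval without 0 was not counted, so nothing is read from the number of members. Collection day coincides with replicate, so day and replicate cannot be told apart. In whole tissue, fewer cells of a type and less RNA per cell cannot be told apart either.

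The members' median log2 ratio was -0.65, and the median was 0.01 over the 498 loci that reached 10 counts in the sum of both libraries. Of the 282 loci that reached 100 counts in both libraries, 126 (44.7%) had a ratio below 0, and the SD of the ratio was 0.22. In this set 7 loci, or 2.48%, differed by more than 1.5-fold in either direction, 6 of them (2.13%) lower in replicate 2. Of the 4 members with that many counts, Mir449a (1.87-fold), Mir34c (1.57-fold) and Mir34b (1.51-fold) were among those 6, and Mir34a (1.07-fold) was not. The members were chosen with this contrast known, so nothing is read from their number. Among the 498 loci with fewer counts allowed, 49 (9.84%) were more than 1.5-fold lower in replicate 2, and 5 of the 6 members were among them, all except Mir34a. Mir34b lay at the edge of 1.5-fold. With library totals in place of TMM, 6 of the 282 loci were past 1.5-fold, and 2 of these were members.

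**Figure D3:**
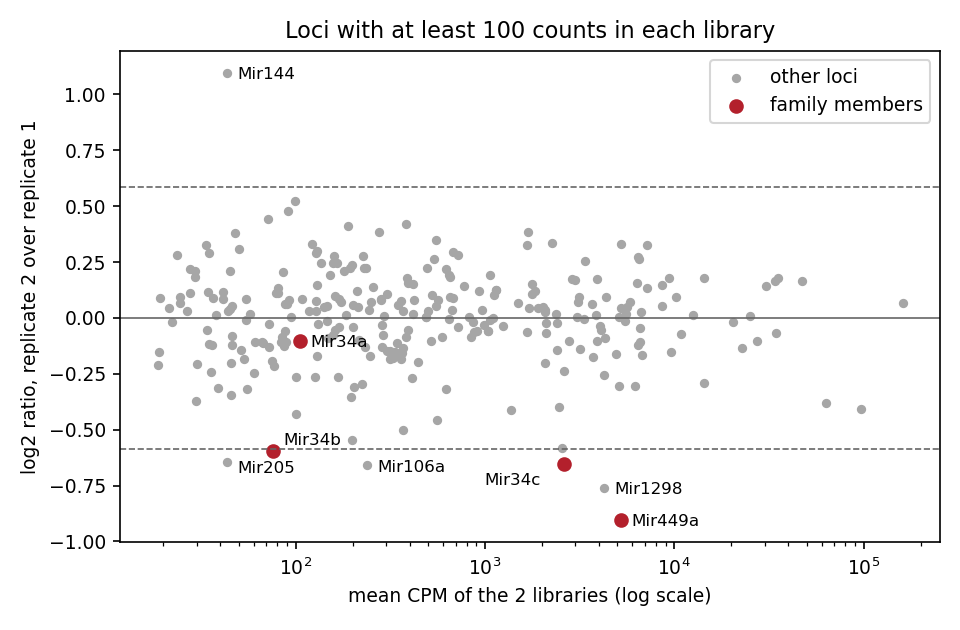
Log2 ratio of replicate 2 over replicate 1 against the mean CPM (log axis) for the 282 loci that reached 100 counts in both libraries; red points are family members, grey points other loci, and dashed lines mark 1.5-fold. Mir449a, Mir34c and Mir34b lie below the lower line and Mir34a lies near 0.

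Among the 282 loci, the log2 ratios nearest to that of Mir449a, outside the family, were those of Mir1298 (-0.76), Mir106a (-0.66) and Mir205 (-0.64). The measure is the distance between log2 ratios over 2 libraries, at least 0.14 here, so it rests on a single difference. Mir1298 lies within the serotonin receptor gene Htr2c, which is strongly transcribed in choroid plexus epithelium. It measured 5275 CPM in replicate 1 against 3209 CPM in replicate 2. Mir205, of stratified epithelia, had 52.2 and 34.3 CPM, and Mir106a, of the Mir17 family, had 288.7 and 188.2 CPM. Several loci below the count minimum of this ranking were also nearer to Mir449a than Mir106a. Among them were Mir1247 (-0.79, 12 and 8 counts), Mir1912 (-0.75, 99 and 69), Mir1947 (-0.74, 30 and 21) and Mir3094 (-0.72, 17 and 12).

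Most loci of the choroid plexus and Htr2c intron list were lower in replicate 2. The list of Htr2c intron microRNAs with Mir204 and Mir211, whose hosts are Trpm genes, had 8 symbols. Of these 7 had a row, 0 were without counts, and 6 had a log2 ratio below 0, beside 233 (46.8%) of the 498 loci. The intervals of 5 of them lay wholly below 0. How many of all loci had such an interval was not counted, so nothing is read from this number. The Htr2c loci of the list share their host gene, so they do not count as separate observations beside those 46.8%. The summed level was 9129 CPM in replicate 1 against 6174 CPM in replicate 2, and the median log2 ratio was -0.46 (range -0.76 to 0.14). Beside Mir1298, Mir1912 had -0.75 (-1.22 to -0.30), Mir1264 -0.50 (-0.59 to -0.42), Mir448 -0.46 (-0.52 to -0.39), Mir204 -0.40 (-0.43 to -0.37) and Mir764 -0.35 (-0.87 to 0.17). Mir211 had 0.14 (-0.69 to 1.00) from 23 and 30 counts. Loci outside the list also had ratios of this size, among them Mir615 (-0.58), Mir20b (-0.54), Mir10a (-0.41) and Mir10b (-0.38). Most of the 498 loci were not below 0. Of the 4 members of this list that reached 100 counts in both libraries, 1 was past 1.5-fold, beside 2.48% of all such loci. The part of choroid plexus content in the difference of the family was not tested.

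The counts of Mir449a and Mir34c were also set against those of Mir1298 and Mir204 within each library. Mir1298 was named above for its ratio near that of Mir449a, so these values are descriptions only. Mir449a had 1.28 counts for each count of Mir1298 in replicate 1 (1.27 to 1.30) and 1.16 in replicate 2 (1.14 to 1.18), and the intervals did not overlap. For each count of Mir204 it had 2.46 (2.41 to 2.50) and 1.73 (1.70 to 1.77). Mir34c had 0.596 counts for each count of Mir1298 in replicate 1 (0.586 to 0.607) and 0.642 in replicate 2 (0.628 to 0.656). For each count of Mir204, Mir34c had 1.14 in replicate 1 (1.12 to 1.16) and 0.956 in replicate 2 (0.934 to 0.979). Mir34c thus moved less than Mir1298 and more than Mir204, and Mir449a moved more than each of them.

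The lists of other cell types and of p53-responsive loci did not have 1 direction. The epithelial list (Mir200a, Mir200b, Mir200c, Mir141, Mir429, Mir203 and Mir205) summed to 753 and 767 CPM in replicates 1 and 2, with 3 of 7 loci below 0 and a median log2 ratio of 0.09. The sensory epithelium list (Mir96, Mir182 and Mir183) summed to 4099 and 4098 CPM, with 1 of 3 below 0 and a median of 0.07. The p53-responsive list, here beside Mir34a, had 7 of 8 symbols with a row, led by Mir143 and Mir107, and summed to 9082 and 9522 CPM. Its median log2 ratio was 0.03, with 2 of 7 below 0. None of its 5 loci that reached 100 counts in both libraries was past 1.5-fold, and these ran from -0.11 (Mir194-2) to 0.11 (Mir192). The ratio of Mir34a, -0.10, lay near the lower end of these. The list's full range of -0.44 to 0.39 was set by Mir215 (7 and 6 counts) and Mir194-1 (5 and 8).

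Endothelial and red cell loci lay mostly on the other side of 0. That list (Mir126a, Mir144, Mir451a and Mir486) summed to 32061 and 37073 CPM in replicates 1 and 2, with 3 of 4 loci above 0 and a median log2 ratio of 0.27. Mir144, of red cells, had 1.09 (0.83 to 1.37), the only one of the 282 loci more than 1.5-fold higher in replicate 2 (0.355%). Mir451a, also of red cells, had 0.38 (0.28 to 0.48), while Mir486, likewise of red cells, had -0.47 (-0.90 to -0.04) from 101 and 86 counts. No list had a member with a row at 0 counts in both libraries. The part of vessel and blood content in the values of the family was not tested.

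**Figure D4:**
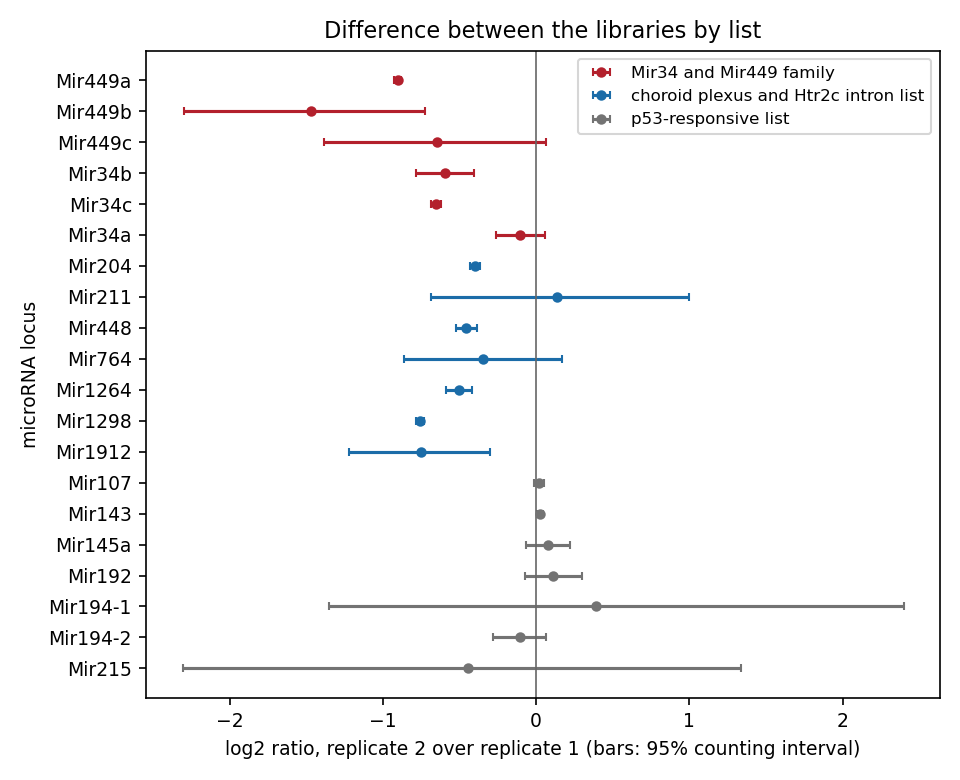
Log2 ratio of replicate 2 over replicate 1 with 95% counting intervals as bars, for the 6 family members (red), the 7 counted loci of the choroid plexus and Htr2c intron list (blue) and the 7 counted p53-responsive loci (grey). Most red and blue points lie left of 0, while the grey points lie on both sides and close to it, except the thinly counted Mir194-1 and Mir215.

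The opposite strand, a column the choice of members did not use, was nearly empty at these loci. Mir34b had 2 opposite-strand counts of 414 in replicate 2, or 0.483% (0.0586 to 1.73), and 0 of 528 in replicate 1. Where the count is 0, the limit given is that of 3 counts of the total, which for Mir34b in replicate 1 allows up to 0.568% (the upper end of the Clopper-Pearson interval is 0.696%). For the other 5 members the count was 0 in both libraries. For Mir449a 3 counts of the total allow a share of up to 0.00760% in replicate 1 and 0.0121% in replicate 2, with upper Clopper-Pearson ends of 0.00934% and 0.0148%. Of the 401 detected loci, 28 (6.98%) in replicate 1 and 32 (7.98%) in replicate 2 had any opposite-strand count. The members' levels would thus be the same with both strands counted, apart from those 2 counts and the slightly larger total.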

How the data were processed

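Small RNA libraries of 2 hindbrain samples were deposited as tables of unnormalized read counts at each microRNA locus, per strand and summed. Per the deposited file lists, the authors used mm10 with annotation M4. An aligner or counter is not given in the sources used here. The 4 rows of unassigned reads stayed out of totals: 13.8% unmapped, 33.9% multimapping and 2.99% outside loci of 11804816 reads in replicate 1, and 15.9%, 34.3% and 3.31% of 14348369 in replicate 2, with 0 ambiguous.

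Symbols came from GENCODE M21 (1894 of 1973 loci matched). The gene-strand column gave CPM. TMM factors (0.985 and 1.01, from 498 loci of at least 10 summed counts) came from edgeR, used for scaling only. With 1 library a replicate no test was made. The ratio and its interval were tested on simulated data for replicate 2 over replicate 1: over 498 loci the interval held the true value for 95.6%. The simulated counts carried counting error only, so this check does not cover spread between samples or error of the scaling. The members, the lists and the naming rule (all members, list members with counts, the 3 loci nearest to Mir449a in ratio and the neighbours in level) were chosen with earlier results of these data known. The 5 lists are choroid plexus and Htr2c intron, epithelial, sensory epithelium, p53-responsive, and endothelial and red cell. Alternatives covered the denominator, strand, scaling, pseudocount, filter, fold threshold and each replicate left out. Scaling ran in edgeR 4.0.16 and, as an alternative, with the size factors of DESeq2 1.42.0, under R 4.3.3. The other steps ran in Python 3.11.15 with scipy 1.17.1, pandas 2.3.3, numpy 2.4.6 and, for plots, matplotlib 3.10.9.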

Additional observations from a re-analysis of the deposited data

How the results depend on the processing

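Each of the 6 members kept a log2 ratio below 0 under all 8 alternatives of scaling, pseudocount, strand and filter. A change of scaling shifts every locus by the same amount, and the shifts were small, for Mir34a from -0.15 to -0.06. The alternatives thus say little about Mir34a and Mir449c, whose counting intervals included 0. The summed Mir449 cluster, at -0.90, had -0.86 with library totals and -0.95 with all reads as the scale, both outside its narrow counting interval. With all reads as the denominator the mean levels were 2538 CPM for Mir449a, 1255 for Mir34c, 50.7 for Mir34a, 36.7 for Mir34b, 2.85 for Mir449b and 2.74 for Mir449c. That denominator also holds the unmapped and multimapping reads and, in smaller part, reads outside the loci. The 7 of 282 loci past 1.5-fold became 32 of 401 with at least 10 counts in each library. They became 78 of 498 with a summed count of at least 10, and 1 of 282 at a 2-fold threshold. The members among them, 3 of 4 with enough counts, became 5 of 6, 5 of 6 and 0 of 4. The number of loci and members counted thus changed with the filter. Leaving out a replicate gave 3729 to 6775 CPM for Mir449a and 62.7% to 67.0% for the Mir449 cluster's share of the family, and left no ratio to compute. No paired analysis was possible because the series has only 1 group. At the lowest counts, 21 and 30, depth limits what can be said of Mir449b and Mir449c.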
